A study of Homo sapiens with 60 samples.

Results

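The glycolysis and hypoxia response genes are 36 human genes followed here across 60 RNA libraries. All come from A549, a cell line long established from a human adenocarcinoma of the lung. The rule took them by gene name and no measured value entered it, although earlier results of these data were known when the list was drawn up. They come from the 60675 Ensembl genes of the deposited table. By role they fall into 17 enzymes that turn glucose into pyruvate and lactate, 6 genes of glucose and lactate transport or of flux control, 12 targets of hypoxia-inducible factor (HIF) outside glycolysis, and HIF1A itself. All 36 were matched by symbol, and all 36 were among the 17368 genes that passed the filter on low counts.

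The cells were kept in RPMI medium with serum and treated for 24 h, and the labels name no low-oxygen group and no genetic change. There were 20 groups of 3 libraries. In 1 group cells got the solvent dimethyl sulfoxide (Vehicle) and in another wortmannin at 10 µM, while the remaining 18 got 1 of 6 herbal extracts made with water, each at 500, 100 or 20 µg/mL. These came from Polygalae Radix, Aucklandiae Radix, Zizyphi Semen, Longan Arillus, Schisandrae Fructus and Liriopis seu Ophiopogonis Tuber, called below by the first word of the name with the dose in µg/mL after it. Wortmannin, an inhibitor of phosphoinositide 3-kinases, was the positive control of the series. The sample labels put the vehicle at 0.1%, the design text at 2%, and no treated group has a stated solvent level. The design text also says that toxic extracts were given at reduced doses, whereas the doses used here are those of the sample labels.

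Glycolysis splits glucose into pyruvate, which lactate dehydrogenase turns into lactate when pyruvate does not enter the mitochondria. HIF is a transcription factor whose alpha subunit is marked for destruction by oxygen-dependent prolyl hydroxylases, so its targets rise when oxygen is short. Most glycolytic enzymes are themselves known HIF targets, and phosphoinositide 3-kinase signalling is known to promote both glucose uptake and HIF1A translation.

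HIF binds DNA at the core letters ACGTG or GCGTG, and the promoters of 4 members are shown because these genes gave the contrast described below: ALDOC and ENO2 rose with wortmannin and with the extract Polygalae at 500 µg/mL, while ENO1 and PGK1 fell. With Polygalae the falls of ENO1 and PGK1 were small, and they did not pass under 2 and 7 of 13 alternative settings. Each sequence holds the 250 bases before the first start that RefSeq lists for the gene (GRCh38.p14), 5′ to 3′ on the strand of the gene, with every match to the core on either strand in capitals. ALDOC lies at chr17:28576896-28577145 (minus strand), ENO2 at chr12:6914330-6914579 (plus), ENO1 at chr1:8878687-8878936 (minus) and PGK1 at chrX:78103998-78104247 (plus).
ALDOC: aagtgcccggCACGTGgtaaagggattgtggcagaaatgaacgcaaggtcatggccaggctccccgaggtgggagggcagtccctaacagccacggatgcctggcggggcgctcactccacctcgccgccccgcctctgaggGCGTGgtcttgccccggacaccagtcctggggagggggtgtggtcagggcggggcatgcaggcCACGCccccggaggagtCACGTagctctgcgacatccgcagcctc
ENO2: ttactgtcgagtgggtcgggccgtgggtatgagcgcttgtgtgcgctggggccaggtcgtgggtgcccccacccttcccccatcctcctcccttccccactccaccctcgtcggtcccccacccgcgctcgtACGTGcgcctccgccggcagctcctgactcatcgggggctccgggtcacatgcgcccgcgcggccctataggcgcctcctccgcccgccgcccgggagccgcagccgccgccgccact
ENO1: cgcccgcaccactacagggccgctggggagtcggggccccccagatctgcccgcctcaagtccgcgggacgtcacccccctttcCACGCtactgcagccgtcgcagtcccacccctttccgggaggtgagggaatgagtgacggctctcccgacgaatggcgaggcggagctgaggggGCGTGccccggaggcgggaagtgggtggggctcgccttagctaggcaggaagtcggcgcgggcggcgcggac
PGK1: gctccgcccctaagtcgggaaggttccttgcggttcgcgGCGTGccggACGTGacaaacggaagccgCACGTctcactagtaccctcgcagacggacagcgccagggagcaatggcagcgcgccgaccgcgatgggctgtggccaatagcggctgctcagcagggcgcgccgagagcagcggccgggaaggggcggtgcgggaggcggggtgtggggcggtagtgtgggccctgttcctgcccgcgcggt
Counted with overlaps, so that CACGTG counts once on each strand, ALDOC held 5 matches, ENO2 1, ENO1 2 and PGK1 3. Both rising and both falling genes shown here carried the core, but these genes were picked for their changes. In the wider set PGAM1, TPI1, PKM, LDHB, HK1 and PFKP, which fell with wortmannin, and SLC16A3, which rose, held no match in this window. RefSeq lists 7 starts for HK1, 5 for SLC16A3, 4 for PFKP and 2 for TPI1, and only the first was searched. PKM also had the deepest fall of an enzyme with Polygalae at 500 µg/mL. Of the 32 members with a RefSeq promoter, 20 (62.5%) had at least 1 match, against 43.1% of all 27305 promoters of this length. The share was 58.8% (10 of 17) for enzymes, 77.8% (7 of 9) for HIF targets and 40.0% (2 of 5) for flux genes. Median GC content was 68.4% in the member promoters and 58.0% in all promoters, and its part in the difference was not tested. VEGFA, BNIP3L, NDRG1 and SLC2A3 had no entry.

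Depth ran from 17.7 to 30.6 M expected counts per library, with a median of 24.6 M, and replicates of a group correlated at 0.985 to 0.993 (Pearson's r of log2 values). The A549 epithelial markers (KRT8, KRT18, KRT7, EPCAM, CDH1, AKR1B10, TM4SF4 and FGB) were all detected, 8 of 8 in each group examined. In CPM, counts scaled to 1000000 per library, they summed to 11400 for Vehicle. The sum was 10700 for wortmannin, 10800 for Aucklandiae 500 and 9920 for Polygalae 500. Of the blood markers, CD3E and HBB were at 0 in these 4 groups and PTPRC did not exceed 0.0257 CPM, while the monocyte gene CD14 was at 2.52 CPM with Vehicle and 4.42 with wortmannin. Endothelial markers summed to between 0.133 and 0.358 CPM, and fibroblast markers, nearly all COL1A1, to 28.9 in Vehicle and 22.5 in Polygalae 500. The replication-dependent histone gene H2AC6 was at 10.6 CPM in Vehicle, at 12.3 after wortmannin and at 7.33 after Polygalae 500. The part of these shifts in the results below was not tested. The first part of the library name separates Vehicle, wortmannin and 3 pairs of extracts (Liriopis with Schisandrae, Longan with Zizyphi, Polygalae with Aucklandiae). In every comparison with Vehicle, library set and treatment therefore cannot be told apart, while comparisons within a pair and across doses of an extract stay inside 1 set.

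In Vehicle, the 8 most abundant genes of the set were glycolytic enzymes. Levels per kilobase of exon in Vehicle ran from 2290 CPM per kb for GAPDH, the glyceraldehyde-phosphate dehydrogenase, down to 0.249 for hexokinase 2 (HK2). After GAPDH came enolase 1 (ENO1, 433), pyruvate kinase (PKM, 381), lactate dehydrogenase B (LDHB, 377), triosephosphate isomerase (TPI1, 342), aldolase A (ALDOA, 313) and lactate dehydrogenase A (LDHA, 290), then PGAM1 (185). GPI (101), PGK1 (93.8) and PFKP (82.5) lay near HIF1A, and HK1, PFKM, ENO2, PFKL, ALDOC and HK2 at 13.9 or below. The gene pairs were unequal. Aldolase C (ALDOC) was at 0.517 CPM per kb, so it made up 0.165 ± 0.00573% (SD, n = 3) of the 2 aldolases measured, and enolase 2 (ENO2) at 7.22 made up 1.64 ± 0.0139% of the 2 enolases. HIF1A was at 94.8 CPM per kb. Among HIF targets, the membrane carbonic anhydrase CA12 was highest at 56.7 CPM per kb and its relative CA9 was at 1.48. Together the 17 enzymes took 1.99 ± 0.0184% of all counts in Vehicle, and the 12 HIF targets 0.0932 ± 0.000265%.

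**Figure D1:**
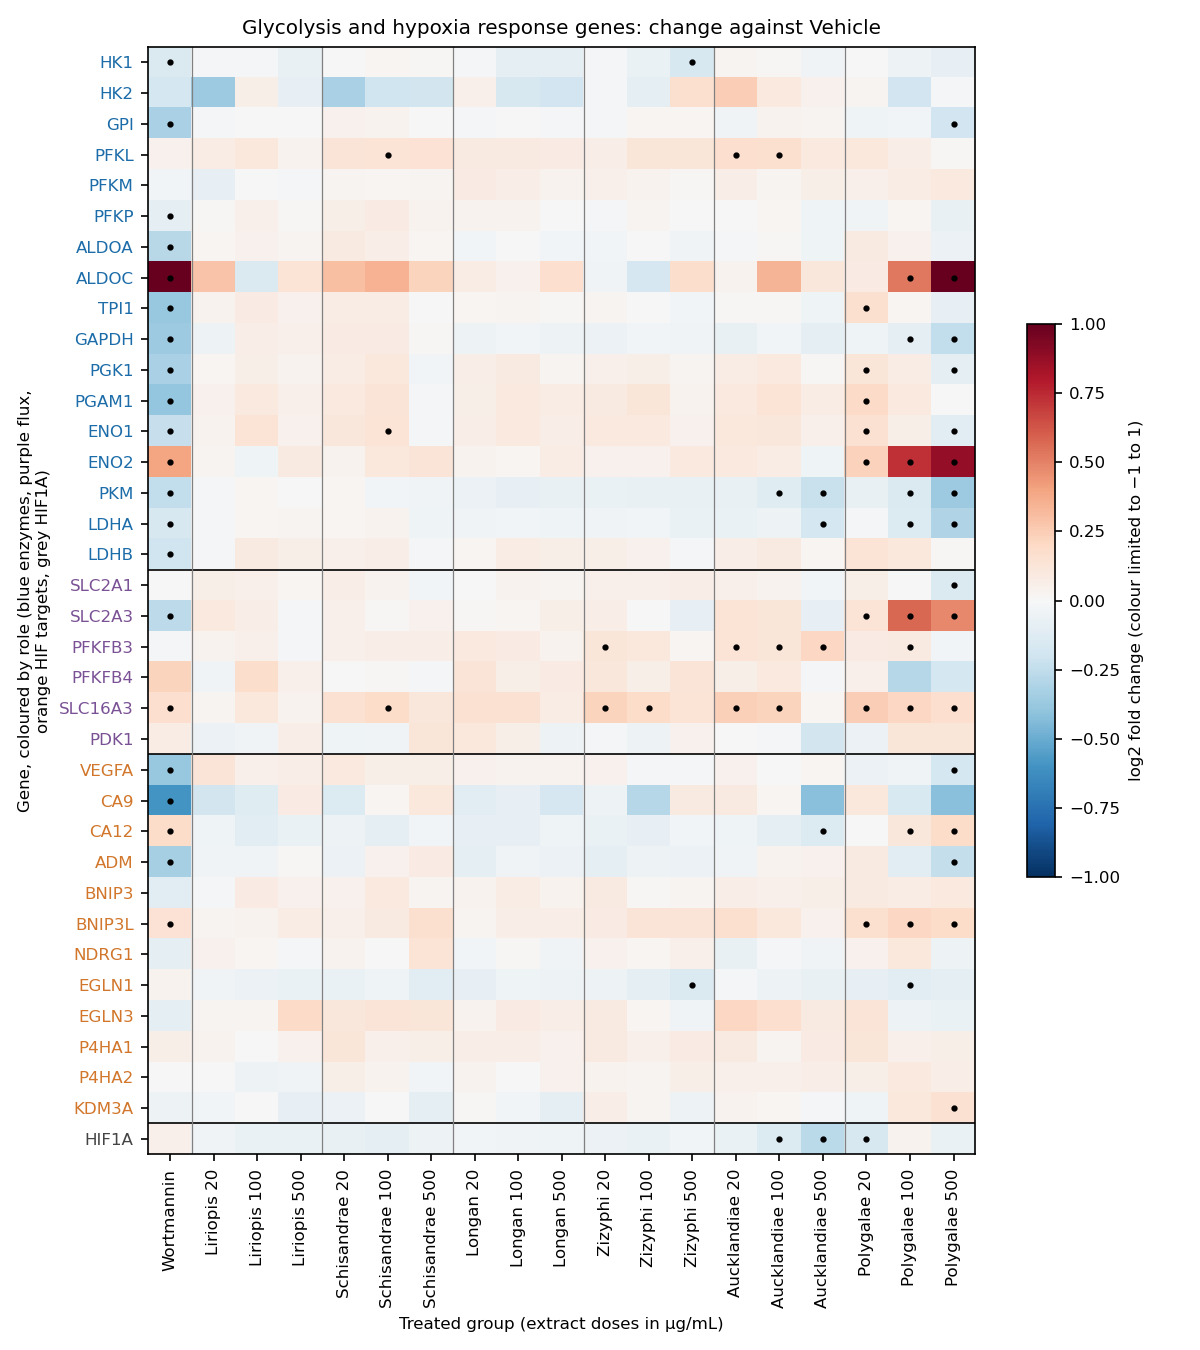
Log2 fold change against Vehicle for each of the 36 genes (rows, coloured by role) in the 19 treated groups (columns, doses in µg/mL), with colour limited to −1 to 1 and a dot where the adjusted p was under 0.05. Dots gather in the wortmannin column and in the Polygalae columns, with 21 genes called for wortmannin, 16 for Polygalae 500 and 0 for Schisandrae 500, Longan 500 and Liriopis 500.

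With wortmannin, most enzymes of glycolysis fell by 0.10 to 0.39 on the log2 scale while ALDOC and ENO2, the scarce aldolase and enolase, rose. Those that fell were among the more abundant, except HK1 at 13.9 CPM per kb in Vehicle. Of the 36 genes, 21 passed the threshold (edgeR's quasi-likelihood test, Benjamini-Hochberg adjusted p under 0.05), 5 higher and 16 lower, where 37.4% of all tested genes passed, 18% higher and 19.4% lower. Among the 17 enzymes, 12 fell and 2 rose, and their median log2 change was −0.20, beside 0.01 over all genes. Of the 12 HIF targets, 3 fell and 2 rose, with a median of −0.07. The median of the enzymes lay 0.13 below that of the HIF targets (−0.128). Taken per treated library against the mean of Vehicle, that gap was −0.168, −0.19 and −0.08 (SD 0.058), so it had the same sign in each. No test was made because the genes were chosen with earlier results of these data known.

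GAPDH (ENSG00000111640; chromosome 12, 6533927 to 6538374) was at 6637, 6956 and 6907 CPM in Vehicle and at 5494, 5303 and 5149 with wortmannin. The groups did not overlap, and the change was −0.36 ± 0.034 on the log2 scale (SE, n = 3 per group; adjusted p = 1.38e-13). The phosphoglycerate mutase gene PGAM1 (ENSG00000171314; chromosome 10, 97426160 to 97433441) went from 467.3, 476.7 and 479.0 to 367.3, 360.9 and 359.3 CPM. This was the deepest fall of an enzyme, −0.39 ± 0.041 (adjusted p = 1.27e-11), and every treated library lay below every Vehicle library. TPI1 (ENSG00000111669; chromosome 12, 6867119 to 6870948), which interconverts the 2 triose phosphates, was at 925.8, 936.3 and 910.4 CPM in Vehicle against 720.0, 706.7 and 705.7. Its groups were just as separate (−0.38 ± 0.041, adjusted p = 3.57e-11).

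The phosphoglycerate kinase gene PGK1 (ENSG00000102144; chromosome X, 77910739 to 78129296), whose enzyme makes the first ATP of the pathway, fell from 509.4, 513.9 and 528.3 to 422.9, 407.0 and 412.1 CPM (−0.32 ± 0.036, adjusted p = 5.1e-11). The glucose-6-phosphate isomerase gene GPI (ENSG00000105220; chromosome 19, 34359480 to 34402413) fell from 1064, 1082 and 1089 to 868.9, 858.8 and 855.3 CPM (−0.32 ± 0.028, adjusted p = 1.9e-14). Neither gene had a treated library within the range of Vehicle. Smaller falls were those of ALDOA (−0.28 ± 0.032), PKM (−0.25 ± 0.029), ENO1 (−0.23 ± 0.035), LDHB (−0.20 ± 0.048), LDHA (−0.16 ± 0.029) and hexokinase 1 (HK1, −0.14 ± 0.044). That of the platelet-type phosphofructokinase PFKP (−0.10 ± 0.032) had an adjusted p of 0.0126, but of 0.063 without Vehicle replicate 2. Over the alternatives run, this p ranged from 0.000278 to 0.0651. The other phosphofructokinases, PFKL (0.05 ± 0.038) and PFKM (−0.02 ± 0.04), and HK2 (−0.17 ± 0.203) did not pass.

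ALDOC (ENSG00000109107; chromosome 17, 28573115 to 28577264) was at 1.54, 1.46 and 1.54 CPM in Vehicle and at 3.22, 2.88 and 2.97 with wortmannin, a 2.0-fold rise (log2 1.00 ± 0.161, adjusted p = 9.02e-07). All 3 treated libraries were above all Vehicle libraries. ENO2 (ENSG00000111674; chromosome 12, 6913745 to 6923698) rose from 30.8, 31.2 and 30.7 to 41.8, 39.6 and 40.7 CPM, again without overlap (0.40 ± 0.049, adjusted p = 1.29e-09). With ALDOA and ENO1 falling, the share of ALDOC among the 2 aldolases per kb went from 0.165% to 0.398 ± 0.0247%, and that of ENO2 among the 2 enolases from 1.64% to 2.5 ± 0.0576%. Both genes overlap another gene on the same strand, so reads of the pair may have been divided between them. The partner of ALDOC, ENSG00000258472, was at 6.49 CPM in Vehicle and 6.97 with wortmannin (0.11 ± 0.119, adjusted p = 0.525), and that of ENO2, LRRC23, at 14.7 and 15.2 (0.05 ± 0.067, adjusted p = 0.599).

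Among genes of transport and flux control, the neuronal-type glucose transporter SLC2A3 and the lactate exporter SLC16A3 moved in opposite directions against Vehicle with wortmannin. SLC2A3 fell by 0.26 ± 0.047 (adjusted p = 9.09e-06) and SLC16A3 rose by 0.17 ± 0.044 (adjusted p = 0.00122). The rise of SLC16A3 was not seen against the groups at 20 µg/mL in place of Vehicle (−0.001, adjusted p = 0.987, from 0.000146 over the alternatives). The main glucose transporter, SLC2A1, was at 174.6 ± 3.21 CPM in Vehicle and 174.9 ± 3.5 with wortmannin. Its change of 0.00 ± 0.029 did not pass (adjusted p = 0.944). The phosphofructokinase activators PFKFB3 (−0.01 ± 0.03) and PFKFB4 (0.22 ± 0.1) and the pyruvate dehydrogenase kinase PDK1 (0.07 ± 0.081) did not pass either.

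Among HIF targets with wortmannin, VEGFA, ADM and CA9 fell and CA12 and BNIP3L rose. VEGFA (ENSG00000112715; chromosome 6, 43770184 to 43786487), a growth factor of blood vessels, was at 33.9, 34.1 and 36.7 CPM in Vehicle and at 26.3, 27.1 and 27.3 with wortmannin. The ranges did not meet (−0.38 ± 0.05, adjusted p = 1.08e-08). ADM (ENSG00000148926; chromosome 11, 10304680 to 10307397), which encodes the vasodilator peptide adrenomedullin, went from 50.4, 51.6 and 46.4 to 40.1, 38.8 and 39.2 CPM. Every treated library was lower (−0.33 ± 0.052, adjusted p = 4.87e-07).

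CA9 (ENSG00000107159; chromosome 9, 35673856 to 35681159), a surface carbonic anhydrase often used as a hypoxia marker, was at 1.74, 2.57 and 3.12 CPM in Vehicle and 1.56, 1.74 and 1.65 with wortmannin. The lowest Vehicle library met the highest treated one to 3 digits. The change of −0.60 ± 0.221 passed (adjusted p = 0.0277), but it was −0.40 without Vehicle replicate 3 (adjusted p = 0.223). It also missed the threshold without Vehicle replicate 2, wortmannin replicate 1 or wortmannin replicate 3, and its adjusted p ranged from 0.00531 to 0.223. ARHGEF39, on the opposite strand, fell too (−0.23 ± 0.06, adjusted p = 0.00148), and without a stated strand setting reads of the pair cannot be told apart.

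CA12 rose by 0.18 ± 0.032 (adjusted p = 5.08e-06) and the mitophagy receptor BNIP3L by 0.15 ± 0.047 (adjusted p = 0.00894). The change of BNIP3L did not pass without wortmannin replicate 1 (0.13, adjusted p = 0.0519), nor against the groups at 20 µg/mL in place of Vehicle (0.06, adjusted p = 0.135, with a lowest value of 0.000742 over the alternatives). PNMA2, which overlaps BNIP3L on the opposite strand, rose as well (0.40 ± 0.044, adjusted p = 3.23e-11). The other 7 HIF targets did not pass, at −0.12 to 0.06: the mitophagy receptor BNIP3, a relative of BNIP3L, the stress gene NDRG1, the oxygen sensors EGLN1 and EGLN3, the collagen prolyl hydroxylase subunits P4HA1 and P4HA2, and the histone demethylase KDM3A. HIF1A was at 488.3 ± 7.0 CPM in Vehicle and 504.9 ± 8.38 with wortmannin (0.05 ± 0.034, adjusted p = 0.28). CPM are shares of a library, so fewer cells of a kind and less RNA per cell cannot be told apart.

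**Figure D2:**
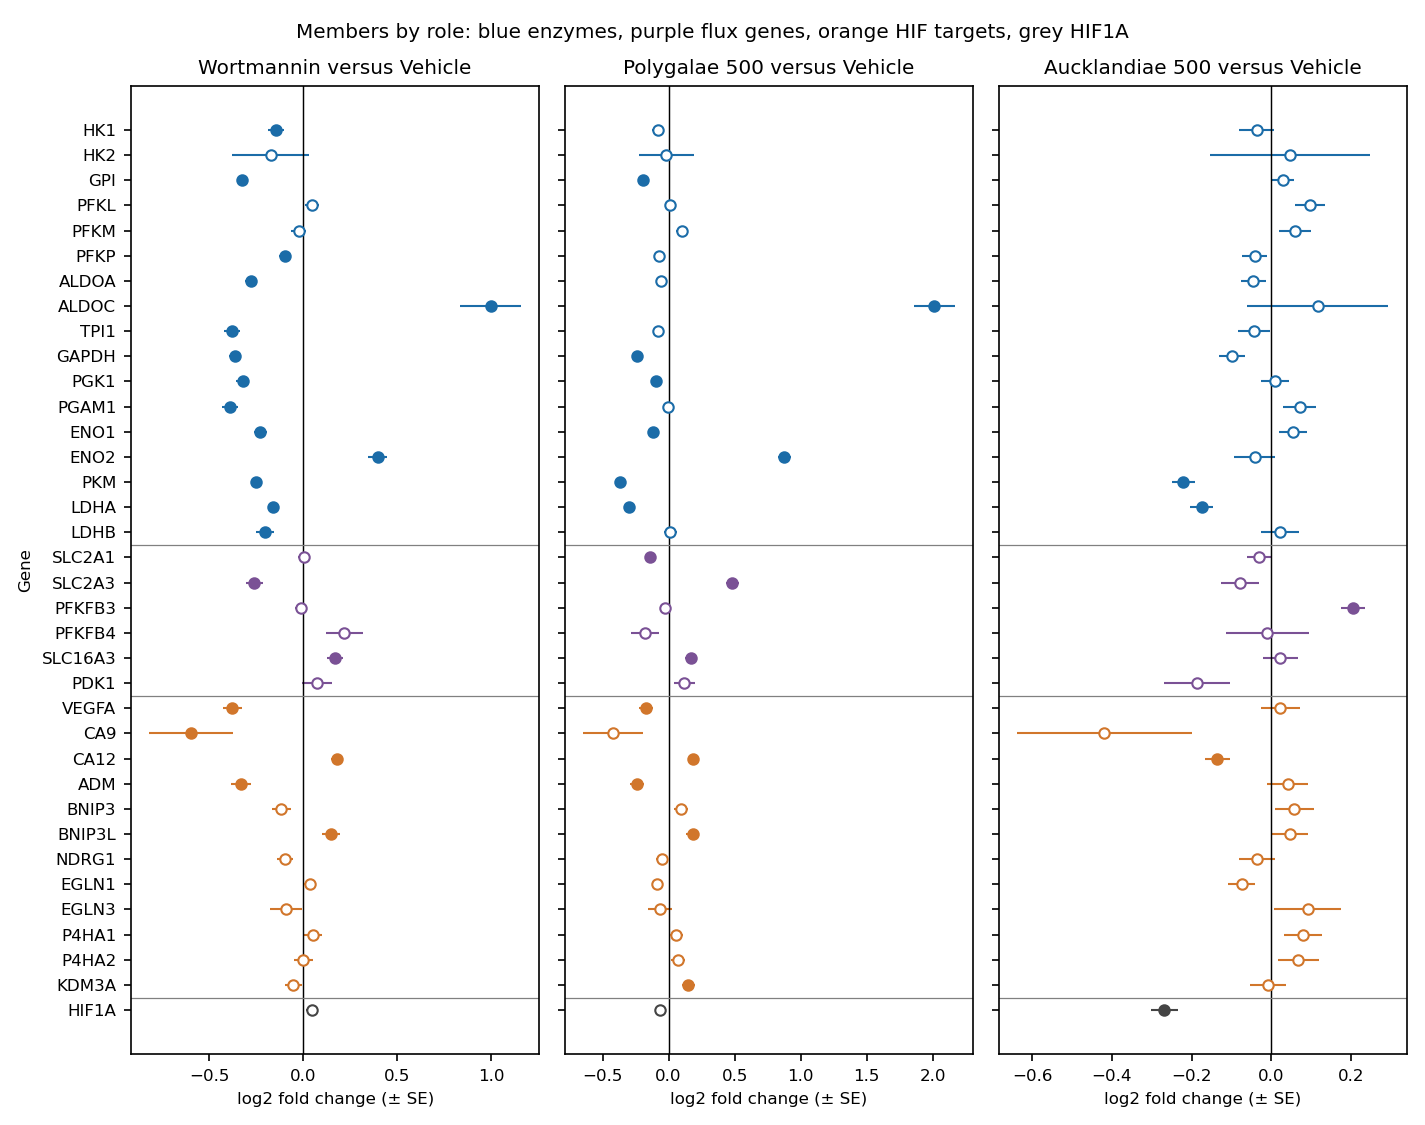
Log2 fold change (± SE) of each gene against Vehicle for wortmannin, Polygalae 500 and Aucklandiae 500, with filled points at an adjusted p under 0.05; the scale of the x axis differs between panels. Enzymes (blue) lie mostly left of 0 with wortmannin (12 lower, 2 higher), and ALDOC and ENO2 stand far to the right with wortmannin and Polygalae 500.

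In Polygalae 500, PKM, LDHA and GAPDH were lower than in Vehicle, and ALDOC, ENO2 and SLC2A3 were higher. Of the 36 genes, 16 passed, 7 higher and 9 lower, where 19.9% of all genes passed, 10.4% higher and 9.48% lower. Among the enzymes 6 fell and 2 rose (median log2 −0.07, beside 0.00 over all genes). Among the HIF targets 2 fell and 3 rose (median 0.00), and among the flux genes 1 fell and 2 rose. The median of the enzymes was below that of the HIF targets by −0.073, and by −0.092, −0.103 and −0.12 in the 3 treated libraries (SD 0.014).

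PKM (ENSG00000067225; chromosome 15, 72199029 to 72231822), the last ATP-making step, was at 3210, 3324 and 3254 CPM in Vehicle and at 2445, 2617 and 2539 in Polygalae 500. The groups did not overlap (−0.36 ± 0.029, adjusted p = 7.8e-16), and no other enzyme fell as far. LDHA (ENSG00000134333; chromosome 11, 18394388 to 18408425), which makes lactate, went from 1824, 1800 and 1773 to 1478, 1476 and 1438 CPM (−0.30 ± 0.03, adjusted p = 3.38e-12). Its partner LDHB, which favours the reverse reaction, was at 1124 ± 28.3 and 1134 ± 23.6 CPM (0.01 ± 0.048, adjusted p = 0.894). GAPDH went to 5465, 5975 and 5887 CPM, below the 3 Vehicle libraries (−0.24 ± 0.033, adjusted p = 5.53e-08), and GPI to 931.7, 963.2 and 934.7 (−0.19 ± 0.028, adjusted p = 2.56e-07).

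The remaining falls of enzymes in Polygalae 500 were small. ENO1 fell by 0.12 ± 0.035 (adjusted p = 0.0127), but not past the threshold without Vehicle replicate 2 or Polygalae 500 replicate 1 (highest adjusted p = 0.0599, lowest 7.8e-09). PGK1 fell by 0.10 ± 0.036 (adjusted p = 0.0444) and did not pass when any 1 of the 6 libraries was left out (adjusted p up to 0.166, from 3.14e-06). TPI1 (−0.08 ± 0.041) and PGAM1 (0.00 ± 0.041), which had the deepest falls with wortmannin, did not pass here.

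ALDOC was at 5.92, 6.65 and 5.73 CPM in Polygalae 500, a 4.03-fold rise over Vehicle (log2 2.01 ± 0.153, adjusted p = 1.91e-16). It was at 1.58, 2.32 and 2.59 CPM at 100 µg/mL and at 1.43, 1.28 and 2.04 at 20 µg/mL. The libraries at 500 µg/mL thus stood well above all others, while those at 20 µg/mL lay around Vehicle. The overlapping gene ENSG00000258472 went from 6.49 to 5.34 CPM (−0.28 ± 0.129, adjusted p = 0.118). ENO2 rose 1.84-fold, to 59.9, 53.8 and 56.6 CPM (0.88 ± 0.049, adjusted p = 2.69e-22). It was at 48.8, 54.1 and 51.1 CPM at 100 µg/mL and 37.0, 35.3 and 36.8 at 20 µg/mL, so every library of each dose was above Vehicle. ALDOC then made up 0.689 ± 0.0302% of the 2 aldolases and ENO2 3.21 ± 0.202% of the 2 enolases, so the abundant copy still held nearly all transcripts of each pair.

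SLC2A3 (ENSG00000059804; chromosome 12, 7919230 to 7936275), which fell with wortmannin, rose in Polygalae 500. It was at 39.8, 43.8 and 43.5 CPM in Vehicle, 60.7, 60.2 and 57.0 at 500 µg/mL and 61.3, 66.4 and 62.6 at 100 µg/mL, against 35.6, 34.7 and 36.1 with wortmannin. All libraries of both doses were above, and all wortmannin libraries below, those of Vehicle (Polygalae 500: 0.48 ± 0.046, adjusted p = 7.9e-13). SLC2A1 fell by 0.14 ± 0.03 (adjusted p = 0.000176) and SLC16A3 rose by 0.17 ± 0.045 (adjusted p = 0.00318). Against the groups at 20 µg/mL the change of SLC16A3 was again −0.001 (adjusted p = 0.992, from 0.00152). PFKFB3 (−0.03 ± 0.03), PFKFB4 (−0.18 ± 0.108) and PDK1 (0.12 ± 0.083) did not pass.

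**Figure D3:**
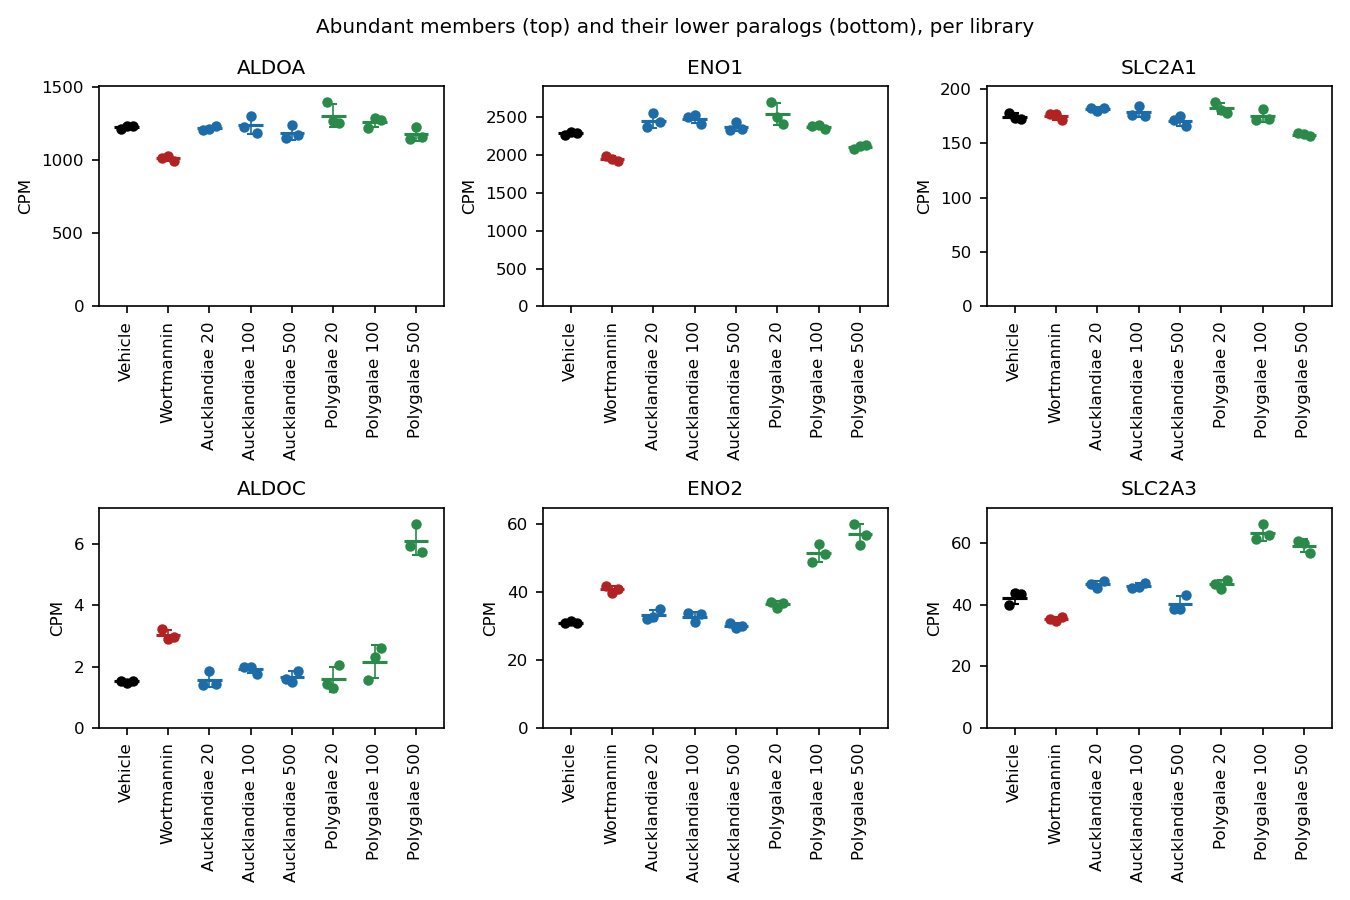
CPM per library of 3 abundant genes (ALDOA, ENO1, SLC2A1; top) and their scarcer relatives (ALDOC, ENO2, SLC2A3; bottom) in Vehicle, wortmannin and the 3 doses of Aucklandiae and Polygalae, with bars for the mean ± SD of 3 libraries and y axes from 0. ALDOC, ENO2 and SLC2A3 were higher at 100 and 500 µg/mL of Polygalae on average, whereas SLC2A3 fell with wortmannin.

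Of the HIF targets in Polygalae 500, CA12 (0.18 ± 0.032, adjusted p = 1.01e-05), BNIP3L (0.18 ± 0.048, adjusted p = 0.00353) and KDM3A (0.15 ± 0.046, adjusted p = 0.0132) rose. ADM (−0.24 ± 0.053, adjusted p = 0.000397) and VEGFA (−0.17 ± 0.051, adjusted p = 0.0104) fell. ADM was at 40.0, 43.2 and 42.3 CPM and VEGFA at 31.4, 30.4 and 31.1, all below the Vehicle libraries of each gene. Without Vehicle replicate 3 or Polygalae 500 replicate 2 the fall of VEGFA did not pass (adjusted p up to 0.0965, from 1.59e-05). The rise of KDM3A did not pass without Vehicle replicate 2, without Polygalae 500 replicate 2 or without the filter on low counts (up to 0.0866, from 0.000638). That of BNIP3L did not pass against the groups at 20 µg/mL (0.10, adjusted p = 0.0505, from 0.000619). CA9 was at 2.10, 1.88 and 1.58 CPM, with 2 of 3 libraries within the range of Vehicle (−0.42 ± 0.226, adjusted p = 0.201). HIF1A was at 467.4 ± 5.17 CPM (−0.06 ± 0.034, adjusted p = 0.204).

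At 100 µg/mL of Polygalae 3 of the enzymes that fell at 500 µg/mL were lower too, and at 20 µg/mL none was. At 100 µg/mL 11 of the 36 genes passed, 7 higher and 4 lower (12.8% of all genes, 7.51% higher and 5.27% lower), among them PKM (−0.14), LDHA (−0.14) and GAPDH (−0.10) as the falling enzymes. At 20 µg/mL 9 passed, 8 higher and 1 lower (12.1% of all genes, 6.59% higher and 5.53% lower). There, TPI1, PGK1, PGAM1 and ENO1 were higher than Vehicle, with replicate 1 the highest of the 3 libraries for each: TPI1 was at 1188 CPM in that library and at 967.9 and 950.1 in the others. The 3 libraries of Polygalae 20 departed most from their group mean of all libraries.

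The dose slope of Polygalae, the log2 change per 5-fold dose step over its 9 libraries and without Vehicle, passed for 10 of the 36 genes, 3 rising and 7 falling with dose (5.03% of all genes, 2.99% rising and 2.03% falling). ALDOC had a slope of 1.02 ± 0.124 (adjusted p = 0.000421), ENO2 of 0.32 ± 0.04 (adjusted p = 0.000314) and CA12 of 0.10 ± 0.026 (adjusted p = 0.048). Slopes of LDHA (−0.14 ± 0.027), PKM (−0.14 ± 0.029), ENO1 (−0.13 ± 0.028), PGK1 (−0.11 ± 0.025), PGAM1 (−0.10 ± 0.026), SLC2A1 (−0.10 ± 0.023) and ADM (−0.16 ± 0.037) were negative. Those of GAPDH (−0.10 ± 0.031, adjusted p = 0.085) and SLC2A3 (0.17 ± 0.053, adjusted p = 0.0934) did not pass. Only 3 genes passed without Polygalae 500 replicate 1 or replicate 3, and 5 without replicate 2, whereas 15 passed without Polygalae 20 replicate 1. The shares of all genes in these smaller fits are not given, so whether all genes moved alike cannot be seen. ALDOC and LDHA passed under each of the 15 alternatives run. CA12 was lost under 11 of them, PGAM1 under 9, PGK1 under 4, ADM, ENO1 and SLC2A1 under 3 and PKM under 2. Without the 3 libraries of Polygalae 20 the slope of ENO2 was 0.15 and did not pass (adjusted p = 0.119, with a lowest value of 2.15e-16).

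In Aucklandiae 500, HIF1A itself was lower than in Vehicle together with PKM and LDHA, and few other members differed. Of the 36 genes 5 passed, 1 higher and 4 lower, where 4.93% of all genes passed, 2.24% higher and 2.69% lower. HIF1A (ENSG00000100644; chromosome 14, 61695513 to 61748259) was at 495.4, 481.4 and 488.0 CPM in Vehicle and at 398.0, 407.6 and 410.3 in Aucklandiae 500, with no overlap (−0.27 ± 0.034, adjusted p = 1.79e-07). It was at 442.0, 438.9 and 450.1 CPM at 100 µg/mL and 469.4, 465.1 and 464.6 at 20 µg/mL, so the 3 doses did not overlap either. The slope was −0.10 ± 0.014 per dose step (adjusted p = 0.000188), and it passed under each of the 14 alternatives run, as the change at 500 µg/mL did under its 13. HIF1A also passed as lower in Polygalae 20. It was above Vehicle in only 2 of the 19 treated groups on average (median log2 change −0.063).

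PKM was at 2748, 2868 and 2783 CPM in Aucklandiae 500 (−0.22 ± 0.029, adjusted p = 2.84e-07) and LDHA at 1567, 1616 and 1599 (−0.17 ± 0.029, adjusted p = 5.07e-05), all below Vehicle. CA12 fell (−0.14 ± 0.032, adjusted p = 0.00547), where it had risen in Polygalae 500, and PFKFB3 rose from 431.8 ± 8.84 to 497.3 ± 18.4 CPM (0.20 ± 0.03, adjusted p = 3.48e-06). Part of both shifts was shared with other groups. Over the 19 treated groups CA12 was above Vehicle in 3 (median log2 change −0.05) and PFKFB3 in 16 (median 0.069). The other 11 HIF targets did not pass. Their range was wide only for CA9 (−0.42 ± 0.219, adjusted p = 0.293), the rest lying between −0.07 and 0.09. VEGFA was at 35.5 ± 1.76 CPM and ADM at 50.9 ± 1.31 (0.02 ± 0.049 and 0.04 ± 0.051). The medians of enzymes and HIF targets were 0.01 and 0.03, and their difference was −0.022 (SD over libraries 0.018). The slopes of SLC2A3 (−0.11 ± 0.024), SLC16A3 (−0.11 ± 0.024) and PKM (−0.07 ± 0.017) passed too, 4 genes in all with HIF1A (0.968% of all genes, 0.749% falling with dose). LDHA was not among them. SLC16A3 was lost under 6 of 14 alternatives, PKM under 5 and SLC2A3 under 3. The count was 1 without Aucklandiae 500 replicate 1 or 2 or Aucklandiae 20 replicate 3, and 2 without Aucklandiae 500 replicate 3 or Aucklandiae 20 replicate 2. Shares of all genes without these libraries are not given.

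**Figure D4:**
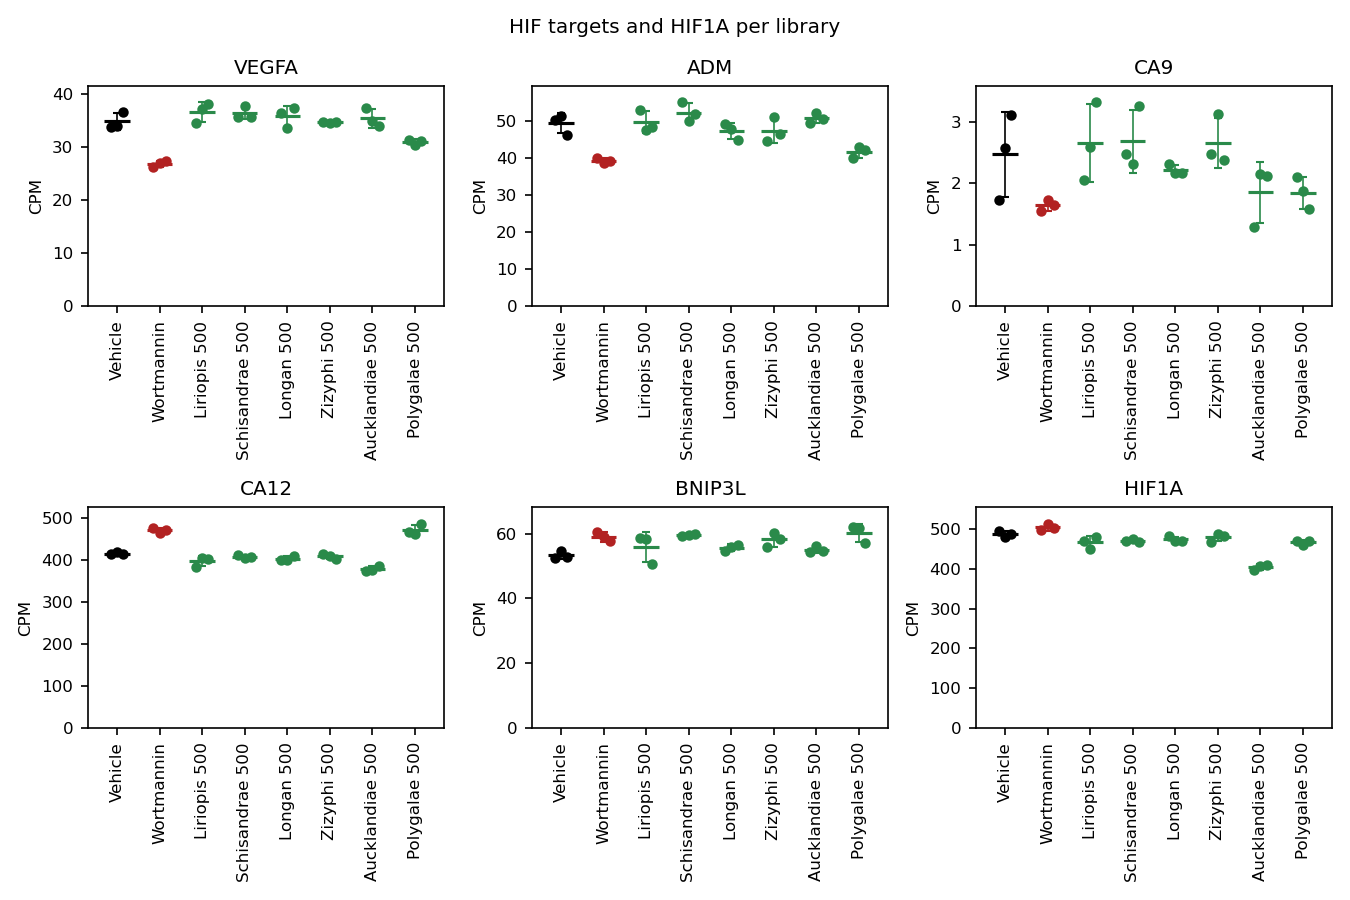
CPM per library of 5 HIF targets and HIF1A in Vehicle, wortmannin and the 6 extracts at 500 µg/mL, with the mean ± SD of 3 libraries and y axes from 0. VEGFA and ADM were lowest with wortmannin and next lowest in Polygalae 500, and HIF1A was lowest in Aucklandiae 500, at 398.0 to 410.3 CPM.

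Polygalae and Aucklandiae share a library set, and set against each other at 500 µg/mL they differed in 19 of the 36 genes, 9 higher and 10 lower in Polygalae (15.2% of all genes, 8.2% higher and 7.04% lower). ALDOC (1.90 ± 0.152, adjusted p = 1.59e-15), ENO2 (0.92 ± 0.049, adjusted p = 4.88e-23), SLC2A3 (0.56 ± 0.046, adjusted p = 4.29e-15), CA12 (0.32 ± 0.032) and PDK1 (0.31 ± 0.085) were the largest differences upward. HIF1A was higher in Polygalae by 0.21 ± 0.034 (adjusted p = 4.91e-06). ADM (−0.28 ± 0.053), PFKFB3 (−0.23 ± 0.03), GPI (−0.22 ± 0.028), VEGFA (−0.20 ± 0.051), ENO1 (−0.17 ± 0.035), GAPDH (−0.14 ± 0.033), PKM (−0.14 ± 0.029) and LDHA (−0.12 ± 0.03) were lower in Polygalae. PKM and LDHA, which fell against Vehicle with both extracts, thus fell further with Polygalae. The difference for VEGFA missed the threshold without Aucklandiae 500 replicate 1 (−0.16, adjusted p = 0.0584, from 0.00303).

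In the same design, 6 of the 36 genes had different dose slopes in the 2 extracts (3.94% of all genes, 2.63% higher and 1.31% lower; edgeR, 18 libraries). The slope of Polygalae minus that of Aucklandiae was 0.99 ± 0.164 for ALDOC (adjusted p = 0.00056), 0.39 ± 0.048 for ENO2 (adjusted p = 1.72e-05), 0.28 ± 0.063 for SLC2A3 (adjusted p = 0.0145), 0.15 ± 0.041 for HIF1A (adjusted p = 0.0344), 0.14 ± 0.029 for CA12 (adjusted p = 0.00377) and −0.20 ± 0.041 for ADM (adjusted p = 0.00419).

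At 100 and 20 µg/mL of Aucklandiae, 5 and 3 genes passed (2.04% and 2.99% of all genes). PFKL (0.16 ± 0.038 and 0.17 ± 0.038), PFKFB3 (0.12 ± 0.03 and 0.14 ± 0.03) and SLC16A3 (0.22 ± 0.044 and 0.24 ± 0.044) were higher at both doses, and PKM (−0.12 ± 0.029) and HIF1A (−0.14 ± 0.034) were lower at 100 µg/mL.

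The other extracts left the set largely without calls. In Zizyphi 500, HK1 (−0.16 ± 0.044, adjusted p = 0.0347) and the oxygen sensor EGLN1 (−0.14 ± 0.034, adjusted p = 0.0134) were lower, 2 of 36 genes where 1.81% of all genes passed and 0.915% were lower. HK1 was at 75.2, 79.5 and 80.2 CPM against 85.6, 90.1 and 87.1 in Vehicle, and EGLN1 at 140.3, 139.1 and 134.1 against 152.8, 150.7 and 153.4. The groups did not overlap, but leaving out 1 library gave 0 or 1 calls. The count was 0 without Vehicle replicate 1, Vehicle replicate 3 or Zizyphi 500 replicate 3, and 1 without each of the others. Shares of all genes without these libraries are not given. The lower level of EGLN1 was not particular to Zizyphi 500. It was above Vehicle in only 1 of the 19 treated groups on average (median log2 change −0.067). Its unadjusted p was under 0.05 in 9 of them, and it also passed as lower in Polygalae 100. No gene of the set passed in Schisandrae 500 (0.478% of all genes), Longan 500 (0.104%) or Liriopis 500 (0.00576%) by edgeR, and DESeq2 gave 0 as well. At an unadjusted p under 0.05 there were 7, 3 and 3 genes. At lower doses, 3 genes were higher in Schisandrae 100 (PFKL, ENO1 and SLC16A3; 1.4% of all genes), 1 in Zizyphi 100 (SLC16A3; 0.599% of all genes, 0.271% higher and 0.328% lower) and 2 in Zizyphi 20 (PFKFB3 and SLC16A3; 0.363%). Schisandrae 20 (0.196%), Longan 100 (0.132%, 0.0864% lower), Longan 20 (0.0173%), Liriopis 100 (0.00576%) and Liriopis 20 (0.0864%) gave 0 by edgeR, with 10, 9, 6, 5 and 4 genes at an unadjusted p under 0.05. The dose slopes of Zizyphi (0.351% of all genes), Schisandrae (0.0403%), Longan (0.0346%) and Liriopis (0.0461%) gave 0 calls by edgeR, with 7, 7, 4 and 2 genes at an unadjusted p under 0.05. DESeq2 gave 2 for Zizyphi and 0 for the other 3 extracts. Within sets, 0 genes passed for Zizyphi 500 against Longan 500 (0.213%) and Schisandrae 500 against Liriopis 500 (0.322%), with 2 and 5 at an unadjusted p under 0.05 and 0 by DESeq2 in both. Dose slopes differed for 0 genes between Zizyphi and Longan (0.115%) and between Schisandrae and Liriopis (0.0173%), with 3 and 2 at an unadjusted p under 0.05.

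The lactate exporter SLC16A3 (ENSG00000141526; chromosome 17, 82228397 to 82261129) was above Vehicle in all 19 treated groups on average and passed in 9 of them, at 3 doses of Polygalae, 2 of Aucklandiae (20 and 100), 2 of Zizyphi (20 and 100), in Schisandrae 100 and with wortmannin. It was at 63.1, 65.8 and 68.7 CPM in Vehicle and at 76.7, 80.7 and 77.2 in Polygalae 20, the group with the highest mean, and these libraries did not overlap. The rise did not grow with dose: the log2 change was 0.25, 0.21 and 0.17 at 20, 100 and 500 µg/mL of Polygalae and 0.24, 0.22 and 0.02 at those of Aucklandiae. The 19 comparisons share the 3 Vehicle libraries. Phosphofructokinase PFKL and BNIP3L were likewise above Vehicle in all 19 groups on average, passing in 3 and 4. The 9 genes BNIP3, EGLN3, HK2, NDRG1, P4HA1, P4HA2, PDK1, PFKFB4 and PFKM passed in 0 of the 19 groups by edgeR, with 14 of their 171 comparisons at an unadjusted p under 0.05. The share of all tested genes that passed in no group is not given, so whether 9 is few or many cannot be seen. HK2, PFKFB4, PDK1 and EGLN3 were among the scarce members, and the SE of their change with wortmannin was 0.203, 0.1, 0.081 and 0.086, so that small changes were not detectable at this depth.

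Summed over the pathway, the 17 enzymes held 1.99 ± 0.0184% of a library's counts in Vehicle, 1.72 ± 0.0301% with wortmannin, 1.79 ± 0.04% in Polygalae 500 and 1.95 ± 0.0241% in Aucklandiae 500 (SD, n = 3). Single libraries of Vehicle were at 1.97 to 2.01%, those of wortmannin at 1.69 to 1.75% and those of Polygalae 500 at 1.74 to 1.82%, so both treatments lay below Vehicle without overlap. Those of Aucklandiae 500, at 1.930 to 1.975%, overlapped with the lowest of Vehicle, at 1.973%. Polygalae was at 1.95% at 100 µg/mL and 2.05% at 20 µg/mL. The 12 HIF targets held 0.0932% in Vehicle, 0.102 ± 0.00197% with wortmannin and 0.101 ± 0.00208% in Polygalae 500, higher as shares of raw counts. CA12 takes the largest part of this sum and rose in both, from 414.8 CPM in Vehicle to 470.1 with wortmannin and 471 in Polygalae 500. The sum does not stand for VEGFA or ADM, which fell, nor for the HIF targets as a set. The 6 flux genes held 0.0723% in Vehicle, 0.0757% with wortmannin and 0.0742% in Polygalae 500. All of these are shares of raw counts. The normalization factors were 0.984 to 0.995 in Vehicle, 1.023 to 1.05 with wortmannin and 1.007 to 1.019 in Polygalae 500. Raw shares of both treatments therefore read higher beside Vehicle than TMM-scaled CPM do. The most abundant flux genes, PFKFB3 and SLC2A1, were at 431.8 and 174.6 CPM in Vehicle and at 428.7 and 174.9 with wortmannin. On the TMM scale used for the tests, the enzymes summed to 20160 CPM in Vehicle, 16570 with wortmannin and 17610 in Polygalae 500.

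Other genes of the pathway, outside the 36, were read from lists of names. Of 25 tested genes of glucose and pyruvate metabolism, 12 fell and 0 rose with wortmannin, where 19.4% and 18% of all genes did (16 of the 25 had an unadjusted p under 0.05), led by the mitochondrial carboxykinase PCK2 (−0.96 ± 0.058), the hexokinase relative HKDC1 (−0.33 ± 0.06) and malic enzyme ME1 (−0.33 ± 0.035). The pyruvate dehydrogenase subunits PDHA1 (−0.26 ± 0.032), PDHX (−0.31 ± 0.047), DLAT (−0.29 ± 0.036) and DLD (−0.22 ± 0.033) were among them. In Polygalae 500, where 10.4% of all genes rose and 9.48% fell, 3 rose, the activator PFKFB2 (0.90 ± 0.061), HKDC1 (0.80 ± 0.056) and the phosphatase PDP1 (0.48 ± 0.093), and 5 fell, among them the kinase PDK2 (−0.29 ± 0.066) and PCK2 (−0.29 ± 0.057). HKDC1 thus fell with wortmannin and rose with Polygalae.

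Of 35 tested further genes of the HIF pathway, 7 rose and 7 fell with wortmannin, 40% in all, near the 37.4% of all genes. STC2, a secreted glycoprotein (−1.70 ± 0.071), the transferrin receptor TFRC (−0.38 ± 0.037) and the oxygen sensor EGLN2 (−0.37 ± 0.036) fell most, and the lipid droplet gene HILPDA (0.28 ± 0.063), the lysyl hydroxylase PLOD2 (0.18 ± 0.025) and the second HIF alpha gene EPAS1 (0.17 ± 0.039) rose most. In Polygalae 500, 7 rose and 5 fell, 34.3% in all beside 19.9% of all genes: the transcriptional repressor BHLHE40 (0.49 ± 0.05), EPAS1 (0.38 ± 0.039) and INSIG2 (0.38 ± 0.083) led the rises, and ANGPTL4 (−0.37 ± 0.069), IGFBP3 (−0.36 ± 0.045) and glycogen synthase GYS1 (−0.31 ± 0.044) the falls. The median of this list was 0.04 with wortmannin and 0.01 in Polygalae 500, near the 0.01 and 0.00 of all genes. In Aucklandiae 500, 2 rose and 1 fell of the first list and 2 rose and 4 fell of the second, 12% and 17.1% beside 4.93% of all genes.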

How the data were processed

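RNA was measured in 60 libraries of A549 cells, 20 groups of 3 by their labels. The deposited table holds expected counts, estimated by the authors with RSEM 1.3.3 after FastQC 0.11.9, Trim Galore 0.6.5 and STAR 2.7.3a on GRCh38, per the submitters' processing notes. Libraries were directional with paired reads of 100 bases, per the labels' protocols. Which annotation release and strand setting RSEM used is not given in the sources used here. RSEM divides reads that fit several genes, so paralogs and overlapping genes are uncertain. Named pseudogenes of a member held at most 1.18% of its counts. Of the values 10.7% were not whole, and all were rounded.

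Genes were filtered with filterByExpr over groups and tested in R 4.3.3 with edgeR 4.0.16 (TMM, robust quasi-likelihood, two-sided, Benjamini-Hochberg adjustment over all genes tested, threshold 0.05), with 1 mean per group over all 60 libraries. Slopes used the 9 libraries of 1 extract, and slope differences 18. CPM use TMM-scaled depth. Positions and exon lengths are those of GENCODE 29. No label says whether the 3 libraries of a group stem from separate cultures; p-values then cover only the spread between libraries, which may be technical. Normalization factors were 0.965 to 1.05. The chi-square per degree of freedom of replicate pairs was 2.03 to 25.3, so none looked like a copy, and it was highest for Polygalae 20 replicates 1 and 3. The test was tested on simulated data.

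Every one of the 36 genes is named. Those with an adjusted p under 0.05 and a log2 change of at least 0.3 with wortmannin, Polygalae 500 or Aucklandiae 500 get all library values. LDHA, HIF1A, HK1, EGLN1 and SLC16A3 were added after their values were seen. Of the other lists, the 3 largest rises and falls with wortmannin and Polygalae 500 are named, except 1 that is not reported here, and the pyruvate dehydrogenase subunits were added after their values were seen. The members and lists were chosen with earlier results of these data known. Alternatives were DESeq2 1.42.0, its size factors in edgeR, no filter, fewer or more libraries in the fit, a block for the replicate number, another reference group and leaving out each library. Same-numbered libraries did not deviate together (correlations −0.05 to 0.06), so the numbers were not used as pairs.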

Additional observations from a re-analysis of the deposited data

Results flagged for a closer look

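The dose slopes of 6 genes differed between Polygalae and Aucklandiae, the 2 extracts of 1 library set (edgeR's quasi-likelihood test of the difference, log2 change per 5-fold dose step, Polygalae minus Aucklandiae). The difference was 0.987 for ALDOC, 0.387 for ENO2, 0.278 for SLC2A3, 0.142 for CA12 and 0.152 for HIF1A, and −0.201 for ADM. For ALDOC, ENO2 and SLC2A3 the slope was positive in Polygalae (1.02, 0.32 and 0.17, the last not passing, adjusted p = 0.0934). It was 0.03, −0.07 and −0.11 in Aucklandiae, where that of SLC2A3 passed (adjusted p = 0.0221). For HIF1A the slope was −0.10 in Aucklandiae (adjusted p = 0.000188) and 0.05 in Polygalae (adjusted p = 0.505), where the library of Polygalae 20 replicate 1 was lowest at 392.5 CPM, against 458.6 and 456.6 in the others of that dose. For CA12 the slopes were 0.10 and −0.05, and for ADM −0.16 and 0.04. With all 60 libraries in the fit, 15 genes of the set passed this test in place of 6. The share of all genes that passed in that fit is not given here, so the larger count cannot be read as particular to this set.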

How the results depend on the processing

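Counts of genes called moved by more than 1.5 times under few settings. The slope of Zizyphi gave 0 calls, but 2 with DESeq2, 1 without a filter and 1 with the replicate block. Zizyphi 500 gave 2, but 1 without a filter and 5 in its own 6 libraries. Schisandrae 500, Longan 500 and Liriopis 500 together gave 0, but 2 in their own 6 libraries, 4 against the groups at 20 µg/mL and 2 without the 3 libraries of Polygalae 20, an alternative chosen after seeing the data. Aucklandiae 500 gave 8 in place of 5 against the groups at 20 µg/mL. In a fit of all 60 libraries the slope of Polygalae gave 18 in place of 10 and the slope difference 15 in place of 6. SLC16A3 showed no change against the groups at 20 µg/mL, at −0.001 with wortmannin and −0.001 in Polygalae 500. Its means in those reference groups ran from 67.11 CPM (Liriopis 20) to 78.18 CPM (Polygalae 20), above the 65.84 CPM of Vehicle. The cause was not tested. Leaving out 1 library gave 20 to 22 calls for wortmannin, 13 to 16 for Polygalae 500, 5 to 6 for Aucklandiae 500, 0 to 1 for Zizyphi 500, 3 to 15 for the slope of Polygalae, 1 to 4 for that of Aucklandiae, 13 to 18 for Polygalae 500 against Aucklandiae 500, and 0 to 2 for Schisandrae 500 against Liriopis 500 (2 without Liriopis 500 replicate 3). The median of enzymes minus that of HIF targets ran from −0.171 to −0.118 with wortmannin, −0.099 to −0.07 in Polygalae 500 and −0.058 to −0.008 in Aucklandiae 500. The replicate block, whose numbers do not pair the libraries, moved no other count by over 1.5 times, with 8 in place of 10 for the slope of Polygalae, and took 2 single genes below the threshold. Depth limits CA9, ALDOC and HK2, at 1.5 to 2.5 CPM in Vehicle.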
